A study of Mus musculus with 12 samples.

Results

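Tetraspanins are small proteins that cross the membrane 4 times and gather other surface proteins, such as integrins and receptors, into shared patches of the membrane. In lymphocytes they are known for tuning adhesion, migration and the strength of antigen receptor signals, and several are made mainly by leukocytes. The expression of 10 tetraspanin genes, Cd53, Cd37, Cd9, Cd81, Cd82, Cd63, Cd151, Tspan13, Tspan31 and Tspan32, was compared between AND-TCR–transgenic and C57BL/6 thymocytes. The family was chosen by the intensities of this same comparison, in which Cd53 stood among the genes with the largest differences, so the values below describe the genes and are no test of them. Within the family, probe sets were taken by annotation alone, as every probe set whose only gene symbol was one of the 10. The 10 genes, of 15965 with a probe set of a single symbol, had 19 of the 36899 probe sets on the arrays, of which 15 were on U74Av2, none on U74Bv2 and 4 on U74Cv2.

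Total RNA came from all thymocytes of adult mice and was hybridized to Affymetrix U74Av2, U74Bv2 and U74Cv2 oligonucleotide arrays. In AND-TCR–transgenic mice a transgenic TCR that is restricted by MHC class II is made by the thymocytes, and H-2b is a haplotype that selects it positively. C57BL/6 mice, which share the H-2b haplotype and carry no transgene, served as the wild type. Each group had 2 hybridizations on each of the 3 array types, 12 arrays in all. The number of mice, their ages beyond adult and the transgene's promoter were not stated in the labels or methods. The methods call them independent experiments but do not say whether separate mice were used, so the p-values cover the scatter of these hybridizations alone, and that scatter may be technical.

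The values are scaled intensities in arbitrary units, with detection limits of 421 on U74Av2 and 1579 on U74Cv2 that were derived from the size of the negative values. Of 10 listed thymocyte genes 9 had a probe set, and all 9 were detected on both arrays of each group. The fluidics module was 4 for every AND-TCR–transgenic array and 2 for every C57BL/6 array, so module and group cannot be told apart. The arrays were run on 2 days, 1 for the first hybridizations of both groups and 1 for the second. The first C57BL/6 array of U74Av2, on which most of the probe sets lie, carried a remark that it had been scanned again. The U74Av2 arrays came from 2 chip lots. A probe set of Xist, the RNA that silences an X chromosome, exceeded the limit on 0 of 2 AND-TCR–transgenic and 2 of 2 C57BL/6 arrays. One probe set each of the Y-linked genes Eif2s3y and Kdm5d exceeded it on 2 of 2 and 0 of 2. The groups thus also differed in sex-linked transcripts. Another Xist probe set, however, exceeded the limit on 1 AND-TCR–transgenic array only, and the other Kdm5d probe sets on no array. None of the 10 tetraspanin genes lies on a sex chromosome.

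The stretches upstream of 4 of the genes are shown because Cd53 and Tspan32 had the largest differences of the family, Cd37 shares their restriction to leukocytes, and Tspan31 had lower readings in AND-TCR–transgenic thymocytes on U74Cv2, without a call. Each run gives the 250 bases before the transcript start in RefSeq for GRCm38.p6, with GGAAG, the core bound by Ets factors, and TGTGGT, the core bound by Runx factors, in capitals on either strand.
Cd53, chr3:106790150-106790399, minus strand: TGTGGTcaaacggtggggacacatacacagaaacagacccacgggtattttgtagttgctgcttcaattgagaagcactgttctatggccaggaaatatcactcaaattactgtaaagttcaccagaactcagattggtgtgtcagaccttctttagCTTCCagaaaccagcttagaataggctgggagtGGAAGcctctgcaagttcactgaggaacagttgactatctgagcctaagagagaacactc
Tspan32, chr7:143004796-143005045, plus strand: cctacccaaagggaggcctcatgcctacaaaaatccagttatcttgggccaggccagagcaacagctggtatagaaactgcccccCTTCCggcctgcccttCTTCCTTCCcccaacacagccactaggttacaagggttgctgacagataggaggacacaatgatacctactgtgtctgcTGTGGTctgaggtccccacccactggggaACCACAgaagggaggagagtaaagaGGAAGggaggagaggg
Cd37, chr7:45238840-45239089, minus strand: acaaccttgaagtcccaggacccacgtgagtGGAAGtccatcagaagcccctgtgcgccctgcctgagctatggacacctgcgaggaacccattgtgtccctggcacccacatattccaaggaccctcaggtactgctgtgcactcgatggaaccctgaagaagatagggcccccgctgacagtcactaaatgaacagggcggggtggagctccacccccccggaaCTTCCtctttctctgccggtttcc
Tspan31, chr10:127070262-127070511, minus strand: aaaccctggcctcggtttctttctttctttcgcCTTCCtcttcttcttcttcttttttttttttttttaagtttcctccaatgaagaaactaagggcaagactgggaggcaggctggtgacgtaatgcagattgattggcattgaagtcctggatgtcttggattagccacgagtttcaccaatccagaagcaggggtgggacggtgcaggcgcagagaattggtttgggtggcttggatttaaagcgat
TGTGGT occurred upstream of 2 of the 10 genes, which were Cd53 with 1 match and Tspan32 with 2, and of 14.2% of all 27025 promoters in the same table. GGAAG occurred upstream of 8 of the 10 genes and of 63.6% of all promoters, with 4 matches for Tspan32, 2 of them sharing a base, and 2 each for Cd53 and Cd37. Matches of GGAAG and of TGTGGT did not overlap each other in the runs shown. GGGCGG, the GC box, occurred upstream of 6 of the 10 genes and not of Cd53, Tspan32, Tspan31 or Cd63, against 32.9% of all promoters. TATAAA was found upstream of none of the 10 and in 13% of all promoters. These matches describe the letters only. Tspan32 and Cd81 are neighbors on chromosome 7, with 1 noncoding RNA gene between them.

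Of the 19 probe sets, 14 had both arrays of at least 1 group above the detection limit, and each of the 10 genes had at least 1 of these. The other 5 were under the limit on all 4 arrays, namely 3 of the 5 probe sets of Cd82, 1 of the 4 of Cd151 and 1 of the 2 of Tspan13. Their intensities ran from -381 to 93.6 on U74Av2 and from -2147 to 717 on U74Cv2, and they give no comparison. In the fit across all probe sets, 2 of the 14, those of Cd53 and Tspan32, were called higher at an adjusted p under 0.05 (limma, Benjamini-Hochberg over 12844 probe sets), where 0.483% of all tested probe sets were called higher, and none was called lower, where 0.568% of all were (1.05% in either direction). Without a trend in the prior variance of limma neither was called, but only 10 of all tested probe sets were. Leaving out any 1 hybridization left a lone array in a group, and such a fit could not decide the call of any gene. The log2 fold changes then ran from 1.46 to 1.74 for Cd53 and from 1.26 to 1.57 for Tspan32.

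**Figure D1:**
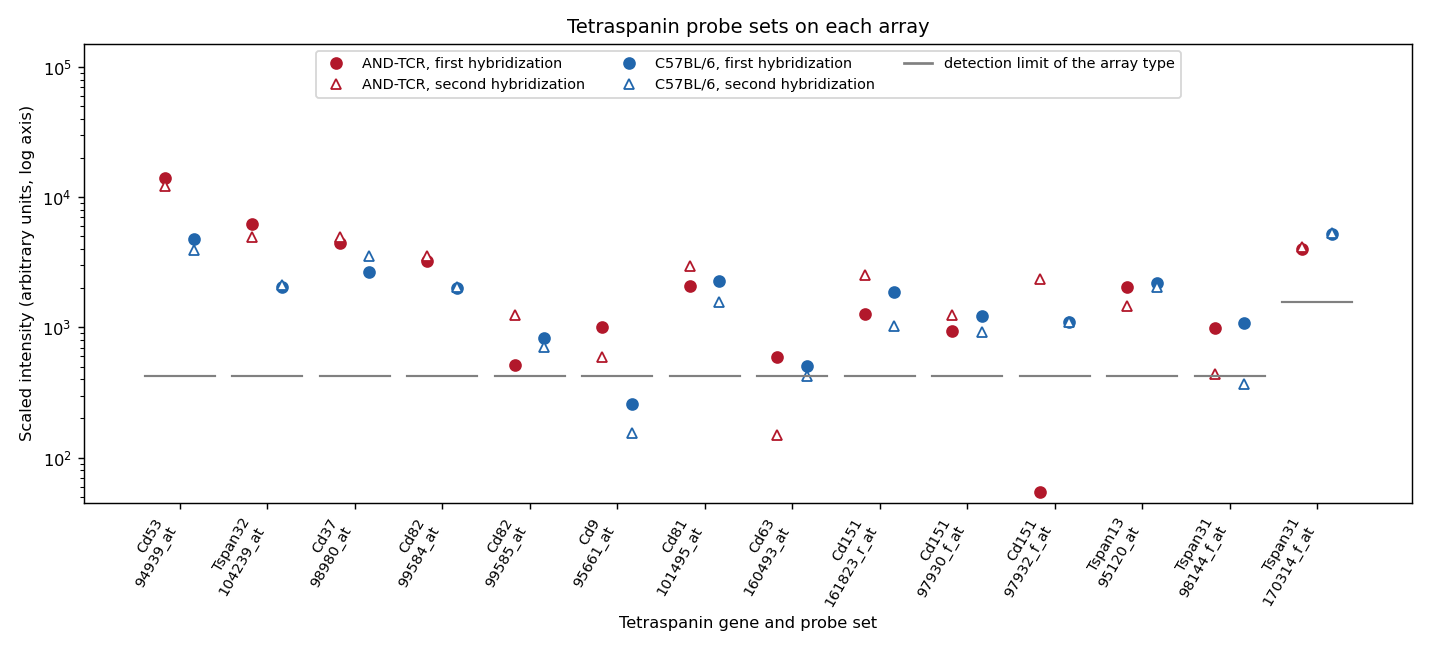
Scaled intensity (y axis, arbitrary units on a log axis) of the 14 tetraspanin probe sets with a measurable level (x axis) on each array. Red stands for AND-TCR–transgenic and blue for C57BL/6 thymocytes, circles for the first and triangles for the second hybridization, and grey lines for the detection limit; the red points of Cd53 at 14143 and 12267 lie above the blue points at 4795 and 3948.

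Among the tetraspanins made mainly by leukocytes, Cd53, a protein found on nearly all white blood cells that takes part in adhesion, gave intensities of 14143 and 12267 in AND-TCR–transgenic thymocytes, against 4795 and 3948 in C57BL/6 thymocytes. Both AND-TCR–transgenic arrays were thus far above both C57BL/6 arrays. As the RNA came from mixed cells, a change in the number of cells of a type and one in RNA per cell cannot be told apart. The ratio was 2.95 in the first and 3.11 in the second experiment, and the fitted log2 fold change was 1.60 (standard error 0.16), the 46th highest of the 12844 tested probe sets.

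Tspan32, also known as Phemx or Tssc6, is a tetraspanin of blood cells that restrains the proliferation of T cells after TCR stimulation in mice. Its intensities were 6205 and 4980.4 in AND-TCR–transgenic thymocytes, against 2048 and 2123 in C57BL/6 thymocytes. The groups did not overlap, and the gap between them was wider than that between hybridizations of either group. The ratios were 3.03 and 2.35, with a log2 fold change of 1.41 (standard error 0.19), the 87th highest.

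Cd37, which is strongest on mature B cells and is known in mice to restrain T cell proliferation, gave 4423 and 4920.3 in AND-TCR–transgenic thymocytes, against 2668 and 3511 in C57BL/6 thymocytes. The groups did not overlap, but the difference was smaller than for Cd53 and Tspan32. Its ratios were 1.66 and 1.40, and its log2 fold change was 0.61 (standard error 0.20), which was not called in the fit.

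Of the broadly expressed tetraspanins of adhesion complexes, Cd82, also called Kai1 and known as a suppressor of metastasis, was measured by a pair of probe sets. The groups were apart at 1 of them only. Its probe set 99584_at gave 3239 and 3564 in AND-TCR–transgenic thymocytes, against 2021 and 2042 in C57BL/6 thymocytes, with ratios of 1.60 and 1.75 and a log2 fold change of 0.74 (standard error 0.20). The probe set 99585_at, with lower readings, gave 511 and 1240.2 against 825 and 701, so the groups overlapped, with ratios of 0.619 and 1.77 and a log2 fold change of 0.07 (standard error 0.45). Neither was called.

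Cd9, which binds the immunoglobulin superfamily proteins Igsf8 and Ptgfrn, was measurable in 1 group only. It gave 1010.3 and 594 in AND-TCR–transgenic thymocytes, both above the limit of 421, against 259.8 and 155 in C57BL/6 thymocytes, both under it. With the C57BL/6 values set to the limit, Cd9 was at least 1.84-fold higher in AND-TCR–transgenic thymocytes, with ratios of at least 2.40 and 1.41 in the 2 experiments and a fitted log2 fold change that was at least 0.88 (standard error 0.32). A probe set that enters the fit through its high group alone can only differ in that direction, and Cd9 was not called.

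Cd81, a tetraspanin of both B and T cells, gave 2074 and 2945 in AND-TCR–transgenic thymocytes, against 2252 and 1555 in C57BL/6 thymocytes. The groups overlapped, and the experiments differed in direction, with ratios of 0.921 and 1.89. Its log2 fold change was 0.40 (standard error 0.29). Tspan32, its neighbor on the chromosome, had ratios above 2 in both experiments.

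Cd151, a partner of laminin-binding integrins, had 3 tested probe sets, and in each the groups overlapped and the experiments pointed in opposite directions. The probe set 161823_r_at gave 1258 and 2531 in AND-TCR–transgenic thymocytes, against 1881 and 1029.9 in C57BL/6 thymocytes, for a log2 fold change of 0.36 (standard error 0.44). The probe set 97930_f_at gave 939 and 1235 against 1216 and 919.6, for a log2 fold change of 0.03 (standard error 0.34). For these sets, as for Cd81, the second hybridization read higher than the first in AND-TCR–transgenic and lower in C57BL/6 thymocytes. The probe set 97932_f_at gave 54.9, under the limit, and 2365 in AND-TCR–transgenic thymocytes, against 1102 and 1107 in C57BL/6 thymocytes, for a log2 fold change of -0.15 (standard error 0.73). In the names of probe sets, f stands for probes shared with other sequences of a family and r for a set that dropped some design rules, so these readings may include other transcripts.

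Cd63, a tetraspanin of late endosomes, lysosomes and exosomes, lay near the detection limit. It gave 595 and, under the limit, 150.4 in AND-TCR–transgenic thymocytes, against 502 and 422 in C57BL/6 thymocytes. The groups overlapped, and with the low value set to the limit the log2 fold change was 0.12 (standard error 0.27).

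Tspan13, a more distant member of the family known in humans as NET-6, gave 2036 and 1456 in AND-TCR–transgenic thymocytes, against 2181 and 2044 in C57BL/6 thymocytes. The first AND-TCR–transgenic array lay just under the C57BL/6 arrays and the second further below. The ratios were 0.934 and 0.712, with a log2 fold change of -0.29 (standard error 0.27).

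Tspan31, first known as a gene amplified in human sarcomas, was read by probe set 170314_f_at on U74Cv2 and 98144_f_at on U74Av2. Both names carry the f explained for Cd151, so these readings may also include other transcripts. On U74Cv2 it gave 3999 and 4169 in AND-TCR–transgenic thymocytes, against 5208 and 5297 in C57BL/6 thymocytes, with ratios of 0.768 and 0.787 and a log2 fold change of -0.36 (standard error 0.31). The hybridizations of a group lay close together there and the groups did not overlap, and limma's standard error there also draws on the spread of the other probe sets of that array type. On U74Av2 it gave 992 and 441 in AND-TCR–transgenic thymocytes, against 1087 and, under the limit, 365 in C57BL/6 thymocytes. The drop between hybridizations, with a log2 of -1.17 in AND-TCR–transgenic and -1.37 in C57BL/6 thymocytes, was larger there than the difference between the groups, a log2 fold change of -0.03 (standard error 0.55).

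**Figure D2:**
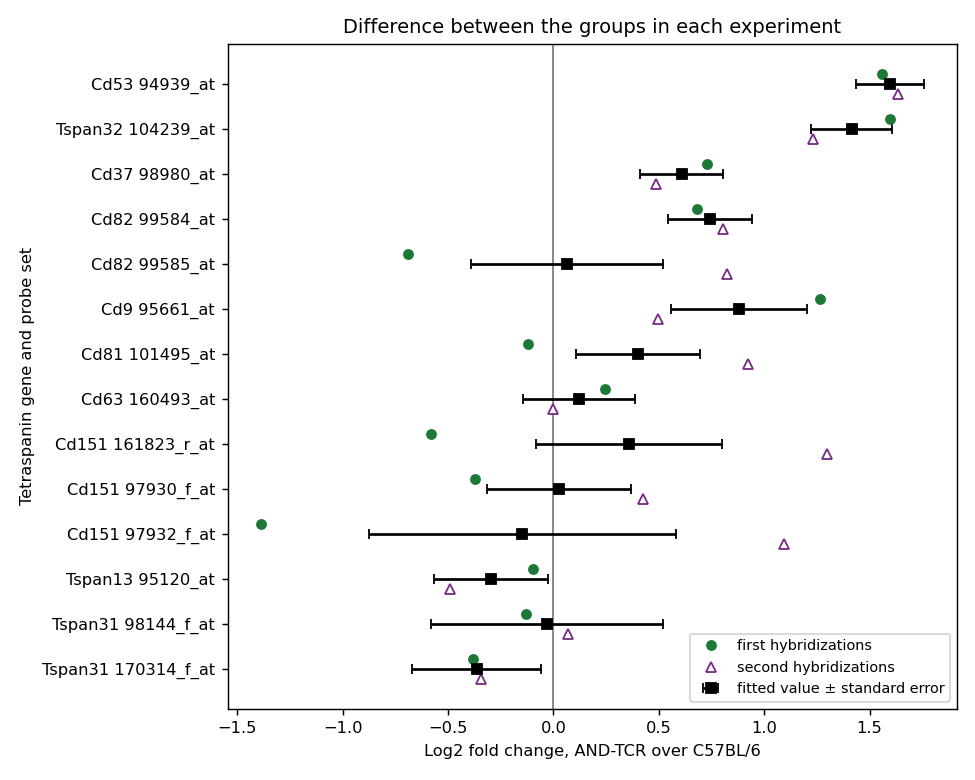
Difference of the 14 tetraspanin probe sets (y axis) as the log2 ratio of AND-TCR–transgenic to C57BL/6 intensities (x axis). Squares with bars are fitted values and standard errors from 2 hybridizations per group, circles the ratios of the first and triangles those of the second experiment; Cd53 at 1.60 and Tspan32 at 1.41 lie above the others, and the 3 probe sets of Cd151 have their circles and triangles on opposite sides of 0.

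Across the 14 probe sets, log2 fold changes ran from -0.36 to 1.60 with a median of 0.24, beside a median of 0.02 over all tested probe sets. The arrays of the groups did not overlap for 5 higher probe sets, where 23% of all tested probe sets were higher without overlap, and for 2 lower ones, where 21.4% of all were lower without overlap. The other 7 overlapped. The same 5 were higher in both experiments, as were 30.2% of all tested probe sets, the same 2 were lower in both, as were 27.6%, and the other 7 differed in direction. The 5 higher were those of Cd53, Tspan32, Cd37, Cd9 and 1 of Cd82. Of these, Cd9 entered the fit through its high group alone, so its place in both counts was set by the filter. At least 2-fold higher in both experiments were 2 of the 14, Cd53 and Tspan32, against 1.19% of all tested probe sets.

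Of the rest of the family, 21 other tetraspanin genes were listed and 19 of these had a probe set, but only 10 of their 31 probe sets, from 7 genes, were measurable. None of the 10 was called in limma, while an unadjusted p under 0.05 was reached by 2 higher and 2 lower ones, beside 960 higher and 836 lower of all 12844. The 2 higher, of Tspan18 and Tspan14, and 1 of the lower, of Tspan2, had both arrays of the other group under the limit. They could thus differ in that direction only. The median over the 10 was -0.15 on the log2 scale. Tspan2 gave 728 and 202 in AND-TCR–transgenic thymocytes, both under the U74Bv2 limit of 869, against 1681 and 2076 in C57BL/6 thymocytes. Its log2 fold change was therefore at most -1.10 (standard error 0.23, adjusted p = 0.12 from limma). Tspan5, one of the tetraspanins that carry the protease Adam10, had a log2 fold change of -0.92 on U74Bv2 (limma adjusted p = 0.27), against which a U74Cv2 probe set gave -0.16 (adjusted p = 0.899). The first of these had 1 AND-TCR–transgenic array under the limit. Tspan9 had -0.82 (limma adjusted p = 0.46). Tspan18 had at least 0.67 at a U74Cv2 probe set (limma adjusted p = 0.228), with both C57BL/6 arrays under the limit. Another probe set of Tspan18, on U74Bv2, was under the limit on every array. Tspan14, another carrier of Adam10, was picked out after its values were seen. Its 3 probe sets, on U74Bv2 and U74Cv2, had log2 fold changes of 0.38, 0.61 and at least 0.64, with no overlap between the groups at any of them and adjusted p between 0.24 and 0.563 in limma.

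Among surface and cytoplasmic proteins reported to bind tetraspanins, 20 genes were listed, and 22 probe sets of 14 genes were measurable. In limma 1 of these probe sets was called higher and 1 lower, where 0.483% and 0.568% of all were. An unadjusted p under 0.05 was reached by 2 higher and 7 lower ones, beside 960 and 836 of all 12844, and the median was -0.22 on the log2 scale. The higher one was that of Cd2, an adhesion receptor of T cells and a reported partner of Cd53. Cd2 gave 14231 and 13355 in AND-TCR–transgenic thymocytes, against 7082 and 7581 in C57BL/6 thymocytes (0.91 on the log2 scale with a standard error of 0.13, limma adjusted p = 0.033). The lower one was that of Cd8a, a chain of the CD8 coreceptor, with 10871 and 10251 in AND-TCR–transgenic thymocytes, against 18421 and 20338 in C57BL/6 thymocytes (-0.87 on the log2 scale with a standard error of 0.13, limma adjusted p = 0.0363). Neither passed without the trend, where only 10 of all tested probe sets did. Fits without 1 hybridization left a lone array in a group and could not decide these calls.

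The integrin chains that pair with tetraspanins gave no call. Itgb1, the common beta chain, had a log2 fold change of at most -1.31 at its U74Cv2 probe set, where AND-TCR–transgenic thymocytes were under the limit on both arrays (adjusted p = 0.121 from limma), but of -0.11 and -0.19 at a pair of U74Av2 probe sets. The U74Cv2 probe set of Itgb1 could thus only be lower, and it is among the 7 lower partner probe sets. Itga4 had -0.73 and at most -0.24 at its probe sets (adjusted p = 0.351 and 0.694). Adam10 had 0.00 and 0.13. Of protein kinase C, which tetraspanins bring to integrins, Prkcb had 4 probe sets with log2 fold changes from -0.80 to -0.22, and Prkca had at least 0.70 at one and -0.01 at another, none called (lowest adjusted p = 0.118 from limma).

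Of 8 genes of late endosomes, the compartment of Cd63, 6 had 9 measurable probe sets. None was called in limma, none had an unadjusted p under 0.05, and the median over the 9 was 0.01 on the log2 scale. Lamp1, an abundant protein of the lysosomal membrane, gave 7143 and 7384 in AND-TCR–transgenic thymocytes, against 6749 and 7680 in C57BL/6 thymocytes. Of the others, Cd68 had the highest value, at least 0.39, and Lamp2 the lowest, -0.31 (adjusted p = 0.559 and 0.725).

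**Figure D3:**
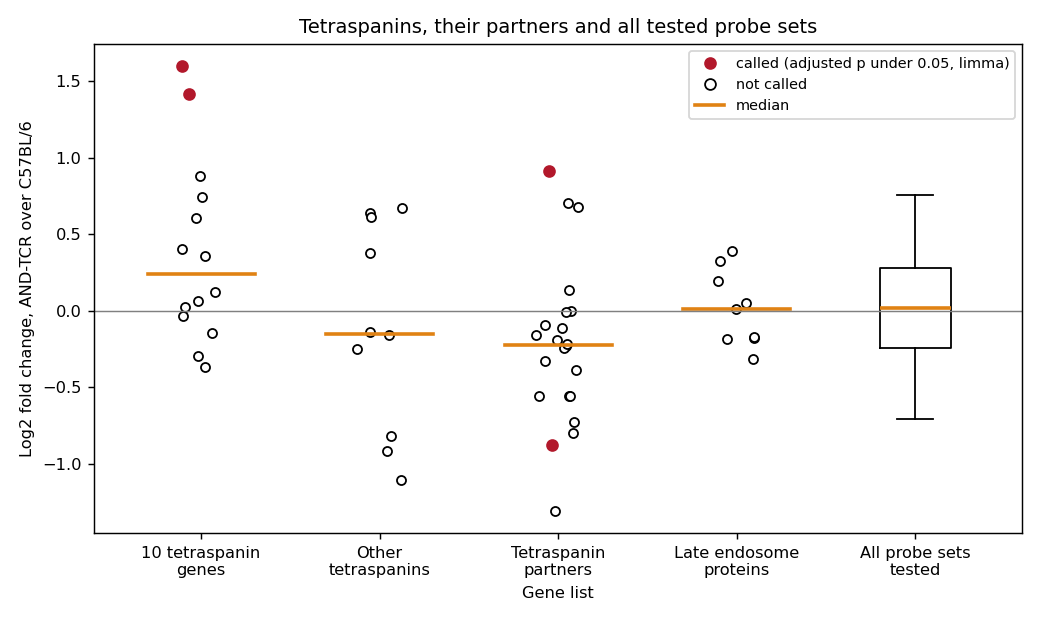
Log2 ratio of AND-TCR–transgenic to C57BL/6 intensities (y axis) of each measurable probe set from the 10 tetraspanin genes, of the other tetraspanins, of tetraspanin partners and of late endosome proteins (x axis), beside a box of all tested probe sets with its quartiles and whiskers at the 5th and 95th percentiles. Filled points were called at an adjusted p under 0.05 in limma and lines are medians, which were 0.24, -0.15, -0.22, 0.01 and 0.02.

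Marker genes of thymocyte stages were set beside these values. The U74Av2 probe sets of a list of double-positive thymocytes, of which 6 of 7 genes were measured, summed to 61029 and 66280.0 in AND-TCR–transgenic thymocytes, against 161193 and 151025 in C57BL/6 thymocytes. Of 9 tested probe sets of this list 5 were lower in limma. Those of single-positive thymocytes summed to 17002 and 16968 in AND-TCR–transgenic thymocytes, against 10327 and 9733 in C57BL/6 thymocytes. Of 10 tested, 1, that of Slfn1, was called higher. Ccr7, on the same list, gave 3387 and 2625, against 928 and 588, a log2 fold change of 2.01 that was not called (limma adjusted p = 0.051). Il7r, also on it, read lower, with 1425 and 1426, against 2176 and 1729. The general thymocyte list summed to 112068 and 120842 in AND-TCR–transgenic thymocytes, against 175698 and 178705 in C57BL/6 thymocytes. Of its 12 tested probe sets 3 were called lower. These were of Cd8a, Cd8b1 and Rag1, genes that are also on the double-positive list, so the lists are not independent. Other genes of the general list were not called. Cd3e had log2 fold changes of 0.06 and -0.03, and Cd3g had 0.15. Cd3d had 0.40 on U74Av2 and at most -0.44 on U74Cv2. Thy1 had -0.29 and Cd4 had -0.56. The part of these marker shifts in the values of Cd53, Tspan32, Cd37 and Cd82 was not tested.

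Other cells that carry tetraspanins were also looked for. Of 7 measured B cell genes, 3 were detected on both arrays of AND-TCR–transgenic and 4 on both arrays of C57BL/6 thymocytes, and the sums were 7901 and 8741, against 6305 and 4989. The B cell receptor chain Cd79a gave 222 and 326 in AND-TCR–transgenic thymocytes, both under the limit, against 919.8 and 986 in C57BL/6 thymocytes. Its partner Cd79b gave 842 and 385, against 1051 and 1119, and neither was called. The kinase Blk, on the same list, read higher in AND-TCR–transgenic thymocytes at both its probe sets, without a call. The first gave 3496 and 4127, against 1924 and, under the limit, 375 in C57BL/6 thymocytes. The other gave 1258 and 757, against -10 and 186, both under the limit. Blk alone made the sums of the B cell list higher in AND-TCR–transgenic thymocytes, and without Blk they would be lower there. Pax5 also read higher, with 943 and 1337, against 691 and 843. The part of B cells in the tetraspanin values was not tested. Hba-a1, the hemoglobin gene that was measurable on the red cell list, gave 6639 and 4378 in AND-TCR–transgenic thymocytes, against 9709.7 and 11407 in C57BL/6 thymocytes, and was not called. Of 9 macrophage genes, 6 were detected on both arrays of AND-TCR–transgenic and 4 on both arrays of C57BL/6 thymocytes, with sums of 9836 and 8889, against 6678 and 8492, and Adgre1 and Itgam were under it in both groups. The dendritic cell list summed to 27140.0 and 26120.5, against 18534 and 19707. On U74Av2 its MHC class II genes H2-Aa, H2-Ab1 and H2-Eb1, and Cd74, read higher in AND-TCR–transgenic thymocytes, without a call. The other genes of the list went the other way, also without a call. Itgax had a log2 fold change of -0.37 and Flt3 had -0.07 and -0.84. The part of macrophages and dendritic cells in the tetraspanin values was not tested. None of 5 platelet genes and 1 of 9 genes of epithelium and stroma exceeded the limit on both arrays of a group, although single arrays did for Gp9, Pf4, Krt8, Col1a1 and Psmb11, and Cd9 and Cd151 are known from such cells.

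**Figure D4:**
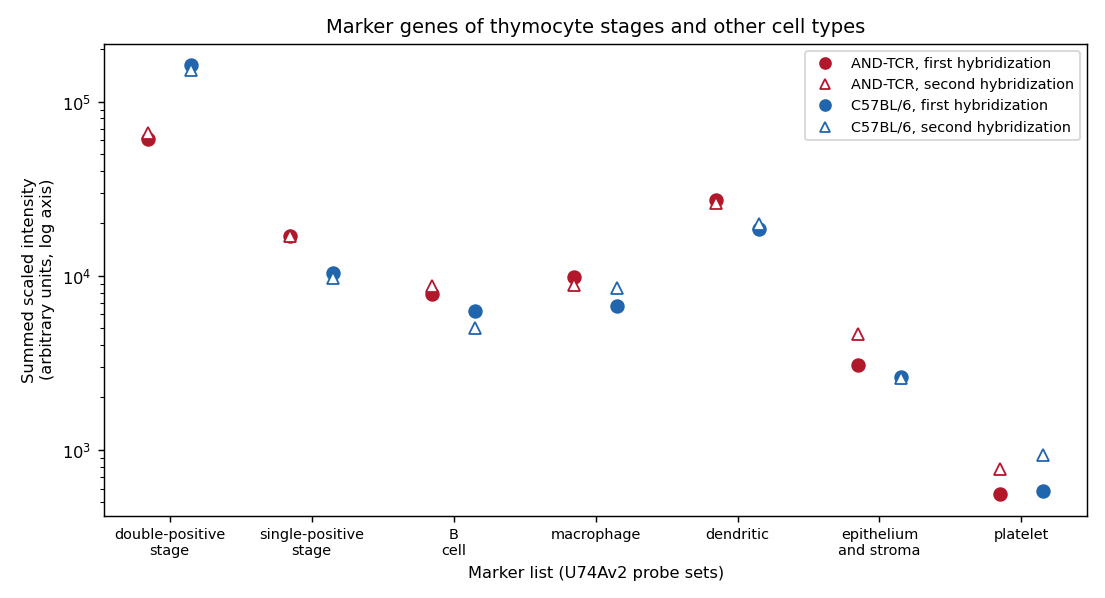
Summed scaled intensity (y axis, arbitrary units on a log axis) of the U74Av2 probe sets of each marker list (x axis), with negative values counted as 0. Red stands for AND-TCR–transgenic and blue for C57BL/6 thymocytes, circles for the first and triangles for the second hybridization; the double-positive list is lower (61029 and 66280.0, against 161193 and 151025) and the single-positive list higher in AND-TCR–transgenic thymocytes.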

How the data were processed

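Total RNA of AND-TCR–transgenic and C57BL/6 thymocytes had been reverse-transcribed, labeled with biotin and hybridized by the authors to 12 Affymetrix arrays, whose scans they analyzed with Affymetrix Microarray Suite software. The deposited intensities are linear and had already been scaled by the authors, since the trimmed means (2% cut at either end) of the arrays were all between 1000.4 and 1000.9. Negative values made up 20.1% to 37.8% of an array. Which signal measure and which scaling target the authors used was not stated.

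Within each array type, arrays were brought to a common trimmed mean. The detection limit was 2 noise SDs, where the noise SD is the median absolute negative value times 1.4826. Values under the limit were raised to it and log2 was then taken, which makes a fold change a bound where a group lies under the limit, and ratios were formed after this step. Testing required both arrays of at least 1 group to exceed the limit. Of 36899 probe sets, 66 controls per array type were left out and 12844 were tested, 5573, 4583 and 2688 by array type. Each array type was fitted on its own (limma 3.58.1 under R 4.3.3, lmFit and eBayes with trend), and Benjamini-Hochberg adjustment ran over all 12844. The number of arrays limits the precision. The fit was tested on simulated data. Alternatives were other floors and filters, other scalings, no trend, a replicate block and each hybridization left out. The array types were normalized separately, and no level was compared between them.

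Names came from the platform annotation, which gives 1 symbol to 29197 probe sets, and 29110 of these matched a RefSeq gene identifier with the same symbol. All 10 genes matched the RefSeq promoter table, of which the first start was used. The genes, lists and tests were chosen with earlier results of these data known. Genes of the lists are named where they passed the test, with up to 4 more that had the largest log2 fold changes. Moreover, Lamp1, Adam10 and Tspan14 and the single markers were chosen after their values were seen. The plots were made in matplotlib 3.10.9 (Python 3.11.15).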

Additional observations from a re-analysis of the deposited data

How the results depend on the processing

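Cd53 and Tspan32 were called in all alternatives except the fits named here, with log2 fold changes from 1.46 to 1.74 for Cd53 and from 1.26 to 1.57 for Tspan32 over all 11 alternatives. Without a trend in the prior variance limma called 0 of the 14 tetraspanin probe sets, 0 partner probe sets and 10 of all. An unadjusted p under 0.05 was still reached by 5 tetraspanin and 7 partner probe sets and by 1679 of all. Cd9 is among these 5 and could only be higher. Leaving out each hybridization in turn, which assumes that the spread of the lone array is that of the other group, gave 0 limma calls each time among all probe sets, the tetraspanins and the partners, while 1290 to 1968 of all had an unadjusted p under 0.05, as had 3 to 5 of the tetraspanins and 6 to 9 of the partners. With the filter at all 4 arrays 256 of all probe sets were called, and with the floor at 1 noise SD 1 partner. The counts of the other tetraspanins and of the late endosome stayed at 0 throughout. Over the alternatives the log2 fold change of 8 tetraspanin probe sets kept its sign and that of 6 took both signs, among them all 3 of Cd151, 1 each of Cd82 and Tspan31 and that of Cd63, which was -0.38 with the floor at 1 noise SD. Cd9, whose C57BL/6 arrays are under the limit, then reached 1.73.

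The hybridization number was also the run day. Deviations of arrays with the same number correlated at 0.04, -0.12 and -0.23 on U74Av2, U74Bv2 and U74Cv2, so the numbers were not taken as pairs. With the replicate block limma called 306 of all probe sets and 4 partners, and the same pair of tetraspanins as without it, Cd53 and Tspan32. A replicate block that crossed the numbers, added after the data were seen, called 455 of all and 3 partners. Neither block changed another count of the lists. A fit with no filter was not run, since 42.6%, 50.5% and 66% of the probe sets on U74Av2, U74Bv2 and U74Cv2 would then have had no spread within groups.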
